A study of Arabidopsis thaliana with 12 samples.

Results

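Among the protein-coding genes of Arabidopsis thaliana leaves, a small set had a CpG methylation level, taken over the gene body, like that usual for transposons. These genes were chosen by that level: a gene entered when at least 20 CpG cytosines between its annotated start and end were covered and 75% or more of all calls at them were methylated. The rule was met by 841 of 26378 protein-coding genes with enough covered cytosines on chromosomes 1 to 5 (3.19%), out of 27444 annotated in RefSeq TAIR10.1, and 1066 genes had too few covered cytosines to be placed. The body level of the genes is therefore a description and was not tested, and the results below concern where the genes lie, how they are built and what surrounds them.

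The study compared leaves of the ecotype written Col-O in the labels, which the paper calls Col-0, of control plants (Control), after SA-CNPs, which are chitosan nanoparticles loaded with salicylic acid, and after inoculation with a powdery mildew (pathogen), with 4 libraries in each of these 3 conditions. Each condition had 2 plant samples with libraries a and b from each. Enzymatic methyl-seq was used, a method that converts cytosines without a methyl group by enzymes and leaves methylated ones to be read as C. The values come from 1 pooled CpG table whose libraries and condition are not given in the sources used here, so no treatment was compared, no value has a replicate error, and every interval below covers counting error only. The paper describes the material, called leaves here, as plants with the roots removed. It also describes plants given both treatments, which have no libraries among the 12 samples. Plant age and time of sampling were not used as groups, and the material contains several cell types whose share in the calls cannot be told apart.

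Plants methylate cytosines in 3 sequence contexts, CpG, CHG and CHH. In transposons all contexts are methylated, the elements are kept silent by small RNAs, DNA methyltransferases and repressive histone marks, and most of them lie around the centromeres. Many steadily expressed genes instead carry CpG methylation only in the interior of the transcribed part and lack it at both ends. A protein-coding gene with the transposon type of methylation is usually silent, and such methylation can be inherited as an epiallele. Only CpG was measured here, so the comparison with transposons rests on this context alone, and CHG and CHH were not analysed here.

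The label was checked against annotated pseudogenes, the class in which this annotation files the genes of known transposons. The bodies of 4 copies of the heat-responsive retrotransposon ONSEN had levels of 84.6%, 86.7%, 91.3% and 89.3%, the retrotransposon EVD 86.3% and the DNA transposon CACTA1 85%. The first and the third of these ONSEN copies rest on few reads, with 19 covered cytosines, under the minimum used elsewhere, at a median of 17 reads in the first, and 41 cytosines at a median of 14 reads in the third. Over the 4358 pseudogene loci with at least 20 covered cytosines the median body level was 87.6% (quartiles 84.2 and 89.8%), and 3547 of them (81.4%) stood at 75% or more. The 841 genes had a median of 89.0% (95% rank interval 88.7 to 89.2%), quartiles of 86.1 and 91.1%, and a range from 75.2 to 96.7%. The other 25537 protein-coding genes had a median of 4.25% (quartiles 0.380 and 19.3%). The quartiles of the chosen genes thus overlapped those of the transposon-rich class, as the threshold made likely.

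Most of the set lay well above the threshold. Body levels of 85% or more were found in 672 genes (79.9%), with 346 genes from 85 to 90%, 315 from 90 to 95% and 11 at 95% or more. The fewest genes of any class of 5 percentage points below 95% had levels from 65 to 70% (43 genes), next to 49 genes from 70 to 75% and 52 from 75 to 80%, whereas 13216 genes were below 5%. The threshold therefore fell beside the sparsest stretch between a large group of low genes and a small group of high ones. Just inside it were AT1G18193 (75.2%), AT1G39070 (75.2%) and AT5G54043 (75.3%), and just outside were AT4G30740 (74.9%), AT4G20520 (74.7%) and AT3G17400 (74.6%). AT1G39070 was also the longest gene of the set at 12459 bp, with only 29 covered cytosines and no covered cytosine in either flank.

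**Figure D1:**
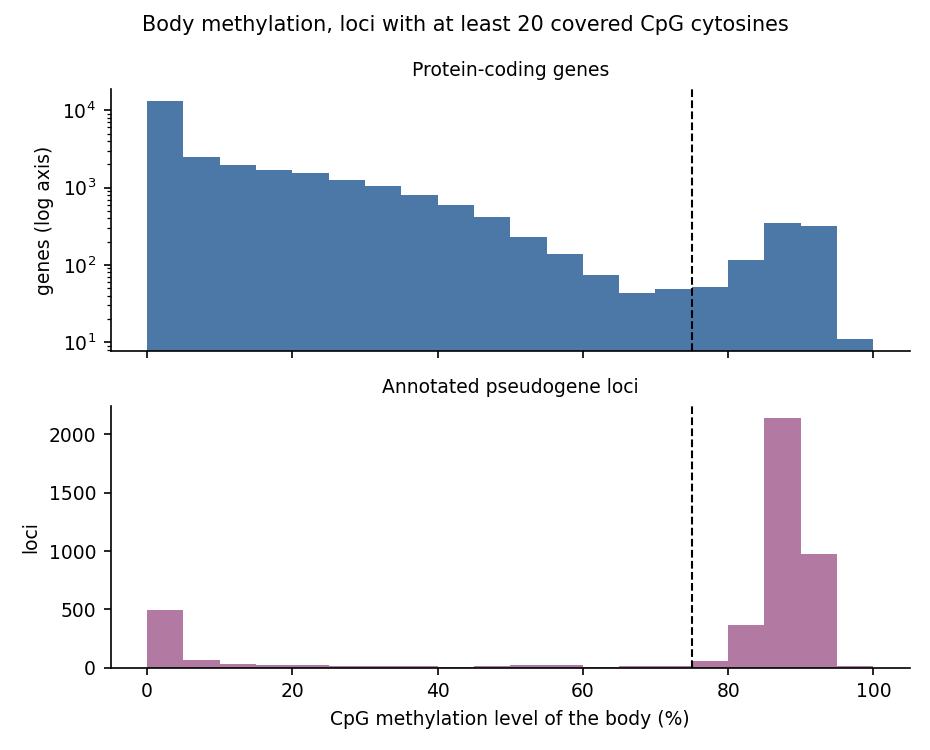
CpG methylation level of the body in classes of 5 percentage points for 26378 protein-coding genes (upper panel, log axis) and 4358 annotated pseudogene loci (lower panel), each with at least 20 covered cytosines, and the 75% threshold as a dashed line. The 841 genes to the right of the line peak between 85 and 95%, where most pseudogene loci lie too, and the class with the fewest genes below 95% is that from 65 to 70%, with 43.

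Summed over the bodies of the 841 genes, 2525293 calls of 2872802 were methylated (87.9%, 95% Wilson interval 87.87 to 87.94%), which was 7.88% of the methylated calls summed over all tested gene bodies. Calls in overlapping genes enter these sums once for each gene. The Wilson interval of a single gene reached a median of 1.30 percentage points below and 1.17 above its level, and at most 3.78 below. Coverage was thinner than elsewhere. The median number of reads per covered cytosine had quartiles over genes of 43.5 and 55.5, against 55.5 and 61.0 in the other genes and 46.0 and 56.5 in pseudogene loci. Cytosines given with 0 reads made up 6.13% of the CpG cytosines listed in these genes, 0.186% in the other genes and 2.89% in pseudogene loci. The lowest count above 0 was 5 reads, so cytosines with fewer reads may be among those given as 0. A median under 29 reads was found in 49 of the genes (5.83%) and in 20 of the other genes (0.0783%). The uniquely mapped reads the authors kept cannot reach identical copies, and the part of repeated sequence in these gaps was not tested. Without those 49 genes the median body level was still 89.0%.

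Methylation was even within most of the genes. A median of 95.5% of a gene's covered cytosines (quartiles 89.6 and 98.5%) had a level of 75% or more by themselves, 4.17% lay between 25 and 75%, and the median share below 25% was 0. Pseudogene loci were close to this, with medians of 93.6%, 4.35% and 0. Every covered cytosine stood at 75% or more in 179 genes (21.3%), against 0.679% of all tested genes and 7.25% of pseudogene loci. No cytosine fell below 25% in 705 genes (83.8%), against 2.70% of all tested genes and 71.0% of pseudogene loci. The shares of the set follow in part from the rule, because a high level over all calls leaves little room for low cytosines. The 2 cytosines of a CpG, on opposite strands, were both at 75% or more in 26419 of 29179 covered pairs (90.5%), against 80.9% of pairs in pseudogene loci. In 3 pairs of the set (0.0103%), 1 was at 75% or more with its partner below 25%. The strands differed by a median of 1.55 percentage points. By the base after the CpG, the level was lowest before T. It was 89.2% at CGA, 88.6% at CGC, 89.9% at CGG and 84.1% at CGT. A lower level at CGT was also present in the other genes, at 10.9% against 16.6 to 17.7%, and in pseudogene loci, at 72.1% against 77.8 to 78.4%.

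The least even genes were short or near the threshold. AT5G54043 had 14 of 28 cytosines between 25 and 75%, AT5G28410 had 25 of 52 and AT2G07795 had 16 of 36, at body levels of 75.3%, 76.1% and 77.7%. At the other end, AT2G33175 had 92 of 92 covered cytosines at 75% or more and a body level of 94.5%.

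The genes were concentrated where transposons are dense. A window of 100 kb was called pseudogene-rich when annotated pseudogenes outnumbered protein-coding genes in it, which was so in 178 of 1193 windows and used no methylation value. These windows held 322 of the 841 genes (38.3%), against 2.92% of all tested genes and 1.75% of the other genes. Read from the windows, 41.9% of the tested genes inside them belonged to the set and 2.03% of those outside. The share fell with every step away: 14.7% of genes up to 0.5 Mb from such a window (194 of 1320), 3.71% from 0.5 to 2 Mb (116 of 3123), 1.67% from 2 to 5 Mb (101 of 6053) and 0.715% beyond 5 Mb (108 of 15113). Even so, 519 genes lay outside the pseudogene-rich windows, and these were the larger part of the set.

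**Figure D2:**
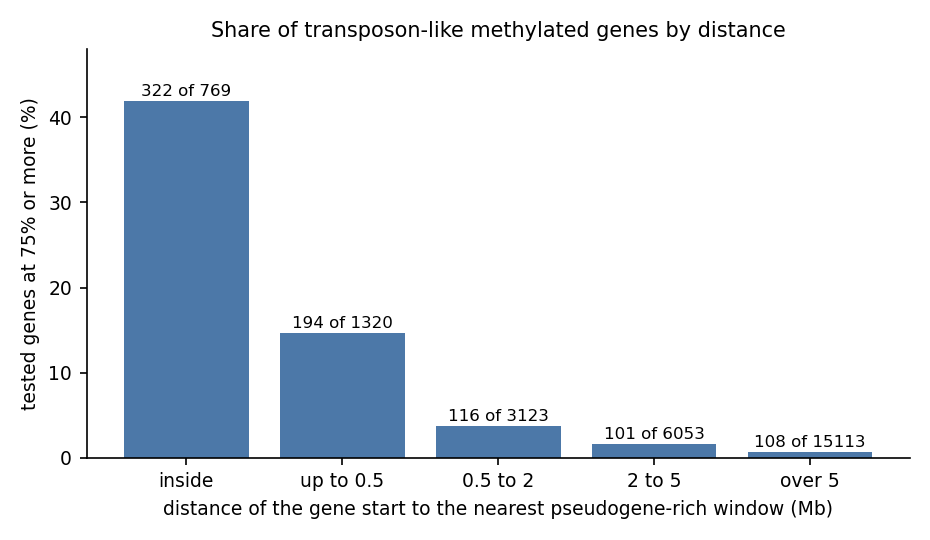
Share of tested protein-coding genes with a body level of 75% or more (vertical axis, percent) by the distance of the gene start to the nearest pseudogene-rich window of 100 kb (horizontal axis, Mb), with the counts above the bars. The share falls from 41.9% inside the windows to 0.715% beyond 5 Mb.

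All chromosomes contributed, with 163 genes on chromosome 1, 204 on chromosome 2, 186 on chromosome 3, 123 on chromosome 4 and 165 on chromosome 5. Chromosome 2 held 24.3% of the set but 15.5% of the tested genes, and chromosome 1 held 19.4% against 26.1%. The nearest annotated pseudogene was a median of 2831 bp away (95% rank interval 2469 to 3486 bp), compared with 32546 bp for the other genes, and 28 of the genes (3.33%) overlapped one directly, compared with 0.403% of the others.

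Many members were neighbours. Counting protein-coding genes in order along the chromosome, 416 genes (49.5%) lay in 153 runs of at least 2 adjacent members and 425 stood alone. Overlapping members count as adjacent here, and no such count was made for other loci. The longest run had 17 genes, from AT3G32050 to AT3G32904 on chromosome 3 (13067626 to 13452807, 385182 bp), in pseudogene-rich windows throughout. Its levels ran from 83.3% at AT3G32400 to 95.4% at AT3G32380, and none of its 17 genes has a symbol of its own. A run of 8 genes from AT2G10556 to AT2G10920 on chromosome 2 ranged from 81.4 to 92.9%. The next run had 6 genes, AT5G39100 to AT5G39150 on chromosome 5, and differed in kind, because it lay in a cluster of germin-like genes over 17780 bp, described below.

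A stretch of chromosome 2 near the centromere, from 3200000 to 3600000, is known to hold a large insertion of mitochondrial DNA, and 32 of the 36 genes tested there belonged to the set. Reads were few: the median per cytosine ran from 14 to 63 over these 32 genes, with a median of 23, and 20 of them were under 29 reads. Their body levels ran from 75.9 to 94.5% with a median of 87.7%, beside 89.0% for the 809 members elsewhere. ABCI4 (AT2G07681), named for an ABC transporter subunit, lies there, with 46 covered cytosines of a 4838 bp gene and a level of 84.9% (95% Wilson interval 82.5 to 87.1%).

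The 1000 bp on either side were not used to choose the genes, although a flank can lie inside a neighbour that is itself a member. The annotation used here gives no strand, so the flanks are named by coordinate. The lower flank had a median level of 84.3% (quartiles 38.2 and 88.7%, 833 genes with a covered flank) and the higher flank 85.4% (quartiles 34.4 and 89.2%, 829 genes). In the other genes the medians were 0.521 and 0.528%, and in pseudogene loci 86.6% on each side. Thus the typical gene of the set sat in methylated surroundings, but the lower quartiles of 38.2 and 34.4% show that many flanks were far less methylated than the gene.

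Both flanks were covered in 823 of the genes and allowed a division by surroundings. Both were at 75% or more in 414 genes (50.3%), against 1.77% of all tested genes and 63.5% of pseudogene loci. Both were below 10% in 46 genes (5.59%), against 53.6% of all tested genes and 8.33% of pseudogene loci. Exactly 1 flank was at 75% or more in 212 genes (25.8%), against 5.67% of all tested genes and 16.1% of pseudogene loci. In 50 genes (6.08%) that flank stood opposite a flank below 10%, against 3.31% of all tested genes and 4.19% of pseudogene loci. At least 1 flank was below 10% in 175 genes (21.3%), against 89.1% of all tested genes and 20.7% of pseudogene loci. Genes with both flanks below 10% are called islands below.

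**Figure D3:**
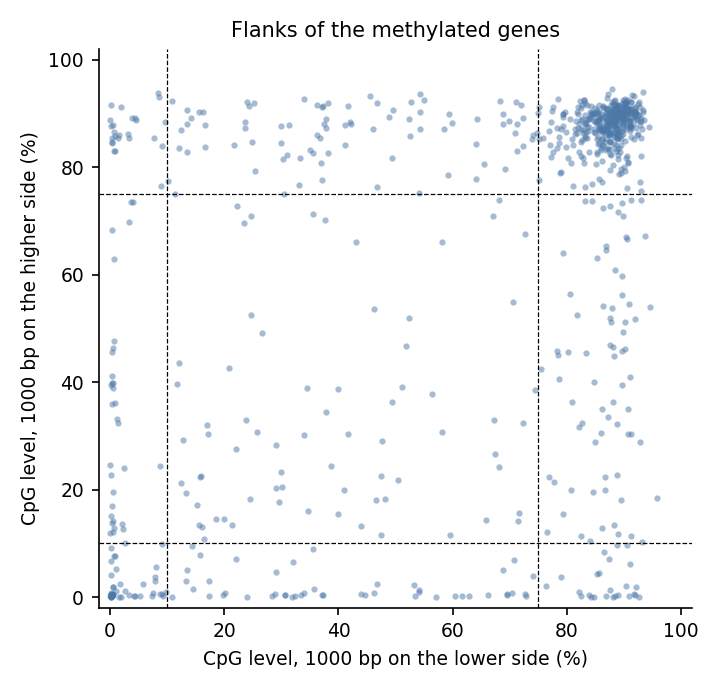
CpG level of the 1000 bp on the higher-coordinate side (vertical axis, percent) against that on the lower side (horizontal axis, percent) for the 823 genes with both flanks covered, with dashed lines at 10 and 75%. Points crowd the upper right corner, where 414 genes have both flanks at 75% or more, and 46 genes lie in the lower left corner.

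The 2 extreme classes differed in place as well. Of the 414 genes with both flanks at 75% or more, 256 (61.8%) lay in pseudogene-rich windows and the median distance to a pseudogene was 1535 bp. Of the 46 genes with both flanks below 10%, 2 (4.35%) lay in such windows and the median distance was 20523 bp (95% rank interval 12745 to 44842 bp). Their median body levels were 89.3% and 84.1%. The islands were spread over the genome, with 9 on chromosome 1, 12 on chromosome 2, 8 on chromosome 3, 3 on chromosome 4 and 14 on chromosome 5.

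Levels across the gene ends are given as a description, because the body level and the flank levels that chose each class already fix a flat course in the first and a step near the annotated ends in the second. In genes of at least 800 bp, the outer 200 bp at both ends and the remaining middle were compared. Genes with both flanks at 75% or more had median levels of 89.1% at the edge and 88.7% in the middle (261 genes). Island genes had 69.1% at the edge and 87.7% in the middle, with a median difference of 18.2 percentage points and a higher middle in 27 of 34 genes. The other tested genes had 0.304% at the edge and 5.81% in the middle. In bins of 100 bp across the ends, island genes went from 2.05% at 100 to 200 bp outside to 15.0% in the last bin outside, 64.8% in the first bin inside and 75.7% in the second. Genes with both flanks at 75% or more stayed between 87.9 and 89.6% from 1000 bp outside to 200 bp inside.

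**Figure D4:**
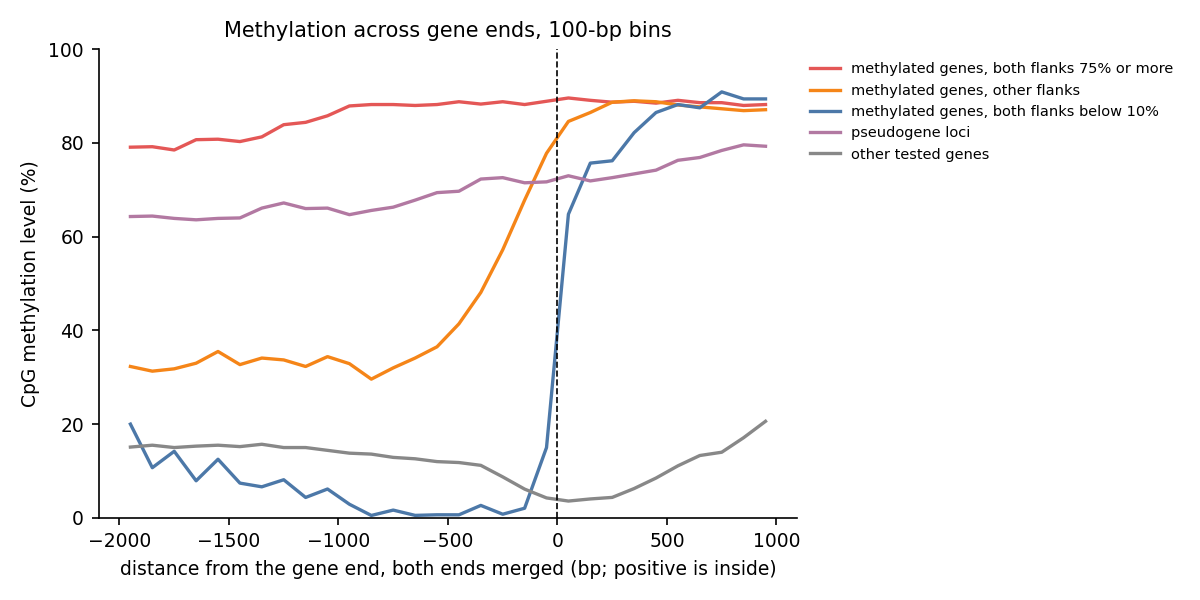
CpG level (vertical axis, percent) in 100-bp bins by distance from the nearer gene end (horizontal axis, bp; negative outside, positive inside), both ends merged, for the 841 genes in 3 classes of flanks, the other tested genes and pseudogene loci. Genes with both flanks at 75% or more stay high across the end, and genes with both flanks below 10% rise from 15.0% in the last outer bin to 64.8% in the first inner bin, as the choice of these classes by flank and body level implies.

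The islands with the lowest summed level of both flanks had almost no methylation next to the gene. GLP6 (AT5G39100) had 84.1% in its body and 0.0919% and 0% in its lower and higher flanks. AT2G33175 combined 94.5% in the body with 0.179 and 0.202%, and AT3G01345, with 116 covered cytosines, 92.8% with 0.0792 and 0.555%. AT2G26120, a gene of 388 bp with 76 covered cytosines, had 90.8% against 0.235 and 0.105%. AT1G67870 (75.6%), AT1G11785 (75.8%), AT2G31700 (79.5%) and AT3G22125 (76.4%) were nearer the threshold, with every flank below 0.4%. AT4G22475 (77.4%) and AT4G22485 (87.9%) overlap each other, as do AT3G22125 and AT3G22142, so each pair shares most of its cytosines and is 1 methylated locus. In all, 31 members overlapped another member.

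The genes with the largest difference between a flank at 75% or more and a flank below 10% are given by value. AT5G27893 had 88.1% in the body, 92.6% on its lower side and 0% on its higher side. AT3G45990 (76.7%) fell from 92.0 to 0.406%, AT3G50320 (92.9%) from 91.8 to 0.657%, AT4G20953 (78.9%) from 90.9 to 0.179% and AT3G24517 (91.5%) from 92.1 to 1.93%. AT3G20030 (91.4%) had the opposite order, with 0.212% below and 91.7% above. With no strand in the annotation used here, it was not determined whether the methylated side is the promoter.

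The genes were short. Their median length was 1000 bp (quartiles 599 and 1619 bp, 95% rank interval of the median 952 to 1066 bp), against 2168 bp for the other tested genes and 1896 bp for pseudogene loci, under the same minimum of 20 covered cytosines. Genes under 500 bp belonged to the set in 22.5% of cases (124 of 551), those from 500 to 1000 bp in 10.2%, from 1000 to 2000 bp in 3.30%, from 2000 to 4000 bp in 1.01% and from 4000 bp in 0.833%. Their CpG cytosines were slightly denser, at a median of 55.6 per 1000 bp against 50.3 in the other tested genes and 53.3 in pseudogene loci. The minimum of 20 covered cytosines admits a short gene only when its CpG cytosines are dense. The part of this minimum in the difference was not tested.

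Few of the genes had been given a name. A symbol other than the locus name was given to 46 of them (5.47%), compared with 39.9% of the other tested genes and 1.45% of pseudogene loci. More than 1 RefSeq transcript was given to 68 (8.09%), compared with 41.4% of the other tested genes. Product names for the rest are not part of the annotation used here. The genes with the most covered cytosines were unnamed: AT5G39770 with 754 cytosines at 90.3%, AT1G20400 with 586 at 85.2%, AT2G15420 with 554 at 91.7%, AT5G38190 with 516 at 92.2% and AT3G29796 with 452 at 92.1%. AT2G15420 and AT3G29796 lay in methylated surroundings, with flanks from 87.5 to 94.3%, whereas AT5G39770 had 30.6 and 0.456%. The highest levels among genes with at least 100 covered cytosines were 93.8% at AT2G11005, 93.7% at AT1G29620, 93.1% at AT2G13430, 92.8% at AT3G01345 and 92.7% at AT2G15110.

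The 46 named genes came from many families, most of which had 1 or 2 genes in the set. The families below were formed from the names in the annotation after the levels were known, so their counts are descriptions.

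Auxin response factors, which bind the promoters of auxin-responsive genes, contributed the largest share of a family: 8 of 22 tested genes. All 8 lie on chromosome 1. ARF12 had 90.0%, ARF20 89.9%, ARF14, ARF15, ARF21 and ARF22 each 89.4%, ARF23 87.6% and ARF13 82.9%. The other 14 factors ranged from 0.672 to 59.0% with a median of 30.9%, so the groups left a gap between 59.0 and 82.9%. Flanks of ARF15, ARF20, ARF21 and ARF23 were between 88.1 and 90.6%, but those of ARF13 only 21.3 and 13.5%. Along ARF13 in 5 equal parts from the lower coordinate, levels were 57.5, 91.6, 85.3, 89.0 and 90.6%, so the low part was at the lower end. From ARF13 to ARF14, 668154 bp, 18 of 92 tested genes (19.6%) belonged to the set, among them RLP5 (89.0%), a receptor-like protein. The ends of this stretch were set at members, and ARF12, ARF15, ARF20, ARF21 and ARF22 are also counted in it. The share is therefore a description and not an estimate for the surroundings of these auxin response factors. These factors are known as close tandem relatives, and whether reads were shared between them was not tested.

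AGAMOUS-like genes encode MADS-box transcription factors, best known for flower and endosperm development. Of 98 tested, 6 belonged to the set: AGL34 (93.0%), AGL36 (91.9%), AGL90 (91.6%), AGL85 (87.4%), AGL92 (80.4%) and AGL86 (79.4%). The other 92 had a median of 0.624% and reached at most 61.3%. AGL36 and AGL90 had both flanks between 73.7 and 84.4%, whereas AGL86 was an island with 1.99 and 0.105%.

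**Figure D5:**
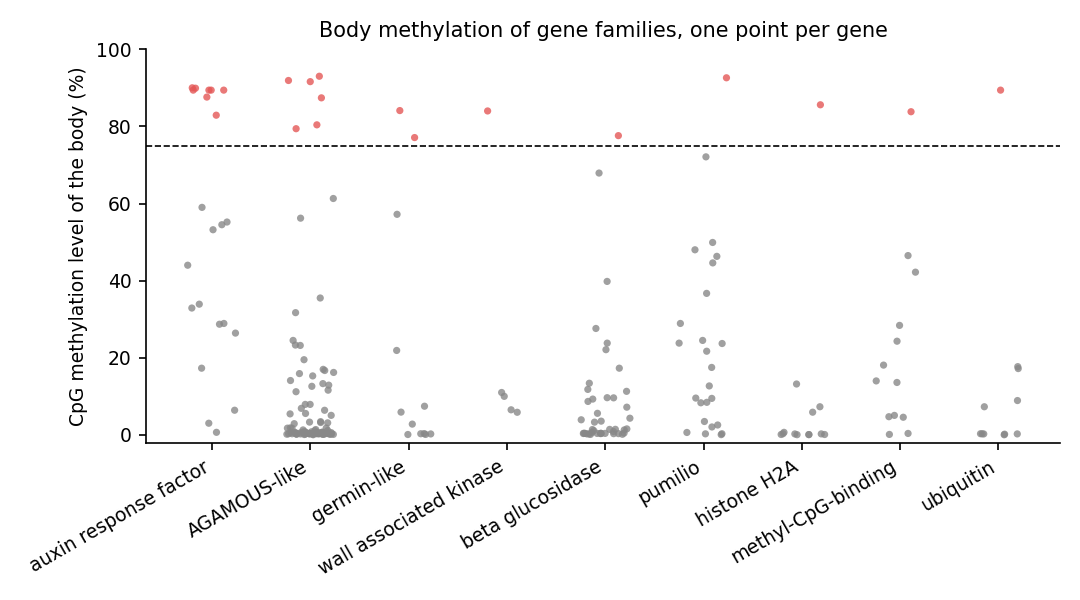
Body CpG level (vertical axis, percent) of every tested gene in 9 families, 1 point per gene, with members of the set in red, other genes in grey and a dashed line at 75%; the horizontal scatter within a family has no meaning. Of the auxin response factors 8 of 22 stand above the line, of the AGAMOUS-like genes 6 of 98, and of the other families shown 1 or 2.

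Germin-like proteins are secreted proteins of the cell wall, several of which take part in oxidative defence. By name, 2 of 12 tested genes belonged to the set, GLP6 (84.1%) and GER2 (AT5G39190, 77.1%), and the others had a median of 1.57%. From GLP6 to GER2 on chromosome 5, with both of these counted, 9 of 10 protein-coding genes were members, at 77.1 to 90.5%. This stretch covers 40611 bp and also holds 2 annotated pseudogenes. Its ends were set at 2 members, so the share is a description. The exception was AT5G39160 with 61.5%. The member GER2 had only 0.997% in the last of 5 equal parts, over 6 covered cytosines. Flanks inside the cluster were uneven: AT5G39110 had 85.2 and 63.2%, AT5G39130 had 0.650 and 63.0%, and GLP6 at its edge had almost none.

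Several other surface proteins were single members of their families. WAK5, a wall-associated receptor kinase, had 84.0% with flanks of 0.280 and 0.413%, while WAK1, WAK2, WAK3 and WAK4 had between 5.87 and 11%. In 5 equal parts WAK5 had 84.5, 86.2, 91.2, 86.1 and 63.8%. RKF2, a cysteine-rich receptor-like kinase, had 88.9%, and the other 40 of its family at most 46.1%. EXT6, an extensin of the cell wall, had 81.2%, AGP19, an arabinogalactan protein, 78.2%, and RALFL11, a small secreted signalling peptide, 76.3%, at family medians of 0.494, 0.254 and 0.374% for the others. In AGP19 the level fell along the gene from 95.8% in the second of 5 equal parts to 71.7% in the middle part and 31.5% in the part after it. RALFL11 had 39.2 and 2.20% in its last 2 parts, over 8 and 2 covered cytosines.

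BGLU13, a beta-glucosidase, was an island with 77.6% and flanks of 1.48 and 0.0938%. In 5 equal parts its levels were 1.05, 75.7, 95.1, 92.5 and 92.9%. BGLU12 (AT5G42260), which did not reach the threshold at 67.9%, had 0.687, 53.5, 92.1, 90.4 and 71.2%. Both genes thus had almost no methylation in the first part and their highest levels in the middle one. The other genes of this group, BGLU14, BGLU15 and BGLU16, had 39.8, 0.259 and 1.43%.

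HISN6B (AT1G71920), a duplicate gene for histidinol phosphate aminotransferase of histidine synthesis and a known silenced epiallele of Col-0, had 86.7% (95% Wilson interval 84.7 to 88.5%). Its sister HISN6A, listed as HPA1 (AT5G10330), had 1.51% (95% Wilson interval 1.23 to 1.85%). HISN6B was covered at only 44 of 96 CpG cytosines, with no covered cytosine in the second and middle ones of 5 equal parts, and HPA1 at 125 of 176. ADR1-L3, related to the immune receptor ADR1 that helps other receptors in salicylic acid signalling, had 78.8%, with 84.3% on its lower side and 0.0511% on its higher side, and its last part had 46.6%. ADR1, ADR1-L1 and ADR1-L2 had 5.34, 32.0 and 9.73%.

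Genes of chromatin and of general functions were also present singly. HTA4, a histone H2A gene, had 85.6%, and the other 12 of its family at most 13.2%. MBD3, named for a methyl-CpG-binding domain, had 83.8%, and PUM17, a Pumilio RNA-binding protein, 92.6%. UBQ13, a polyubiquitin gene whose Columbia allele is known to carry inserted mitochondrial DNA, had 89.4%, whereas the other 10 ubiquitin genes had a median of 0.296%. Reads in UBQ13 were few, with medians of 15.5, 9, 15, 28 and 36 per covered cytosine in 5 equal parts, and 6 of 58 cytosines were covered in the second. OFP9, a transcriptional repressor of the ovate family, had 90.0%, with 0.139% in the lower flank and 87.7% in the higher. CYP705A32 (87.0%) and CYP79A4P (89.4%) were the cytochrome P450 genes, out of 232. The highest named gene was PRSL1 at 95%, from 93.7 to 96.5% in all 5 parts.

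Lists of genes with known epigenetic behaviour are short, and their counts are read beside the 3.19% of all tested genes. Of 11 genes known for expression that depends on methylation in mutants, accessions or epialleles, 0 belonged to the set. FWA, a flowering gene silenced outside the endosperm by methylation of repeats at its start, had 26.5% in the body, SDC, an F-box gene with methylated promoter repeats, 11.4% with 88.6% in the lower flank, and BNS 3.78% with 95.2% in the lower flank. IBM1, a histone demethylase gene, was highest at 30.3%. Of 17 tested imprinted genes, 2 belonged to the set, AGL36 and AGL90, and the median over the 18 listed was 8.55%. Of 6 reference genes of steady expression 0 were members, at 0.191 to 36.4%.

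The study listed genes near methylation changes that it found on these samples, so membership in those lists is not independent of the data, and with the condition of the table unknown only the body levels are given. Of 15 tested genes listed with cytosines hypomethylated after the pathogen, 7 belonged to the set, beside 3.19% of all tested genes: AT4G29090 (92.3%), described there as RNase H-like, AGL90, ARF15, AT1G27570 (88.0%), from the phosphatidylinositol kinase family, AT4G04632 (85.5%), a protein kinase, AT2G05360 (83.9%), linked to F-box proteins, and AT4G08430 (81.9%), a Ulp1 protease. Of 52 tested genes listed with hypomethylated cytosines for SA-CNPs, 2 did, AT2G16340 (96.1%) and AT5G38190 (92.2%). In the paper, the pathogen differed from control only in the CHG context and SA-CNPs in the CpG context. The 2 lists thus concern different cytosines, and their shares cannot be set against each other. The lists are short and the shares were not compared by a test. Of 10 genes listed with hypermethylated cytosines after SA-CNPs, 0 belonged to the set, and of 40 listed as both hypomethylated and higher in expression, 1 did, AT1G13470 (77.6%).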

How the data were processed

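The authors aligned enzymatic methyl-seq reads to TAIR10.1 with Bismark and Bowtie 2, kept uniquely mapped reads and removed duplicates. They deposited raw counts of methylated and unmethylated reads per CpG cytosine and strand, without normalization, in 1 pooled table of unstated libraries. Of 5567714 nuclear CpG cytosines 98.2% were covered, each by at least 5 reads, with a median of 58. The level of a region was methylated counts over all counts, with 95% Wilson intervals that take calls as independent of each other. Rank intervals (95%) go with medians over genes. Genes came from RefSeq TAIR10.1, whose copy used here lacks strand, exons, product names and sequence, so the planned product classes, protein lengths and promoter composition were not computed. Genes were named as extremes of cytosine number, level, flanks or evenness, as members of the longest run, or from lists. Named families and 5-part profiles were added after values were seen. The members and lists were chosen with earlier results of these data known. No test was made. Tables were computed in pandas 2.3.3 and numpy 2.4.6 under Python 3.11.15, rank intervals with scipy 1.17.1 and plots with matplotlib 3.10.9, and the calculation was checked on simulated data. Alternatives changed coverage, thresholds, flanks and windows.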

Additional observations from a re-analysis of the deposited data

How the results depend on the processing

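A count was taken as unmoved within 1.5 times its value, and a median within its own 95% rank interval, which is the narrower limit. By these limits 44 of 50 alternative values were unmoved and 6 moved. With at least 40 covered cytosines 547 genes met the rule, and the median length was 1322 bp, while a minimum of 10 gave 871 bp. Flanks of 500 bp had a median of 85.8% on the lower side, and flanks of 2000 bp had 82.8% on the lower and 83.7% on the higher side. Under the other settings the number of genes ran from 789 (body level of 80% or more) to 992 (at least 10 cytosines). All 841 genes met the rule with both strands summed, and 813 of them with at least 20 reads per cytosine. Genes with both flanks below 10% numbered 35 to 46, those with both at 75% or more 367 to 472, and those in pseudogene-rich windows 290 to 322. Leaving out genes under 29 reads, an alternative chosen after seeing the data, left 792. No paired analysis was possible because the values come from 1 pooled table, and for the same reason no library could be left out. A count by product class could not be made, and named genes were counted in its place (40 at 80%, 52 at 70%).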

Other observations

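Below the minimum of 20 cytosines, 666 protein-coding genes had 10 to 19 covered cytosines, and 151 of them (22.7%) had a body level of 75% or more. Their median level was 88.4% and their median length 385 bp, 77 had both flanks at 75% or more and 8 had both below 10%. Only 10 of these genes have a symbol, and 5 of the 10 are LURE1 genes, a tandem group on chromosome 5 that encodes small secreted peptides which attract pollen tubes. LURE1.1 had 81.5%, LURE1.2 89.4%, LURE1.3 88.0%, LURE1.4 82.8% and LURE1.5 90.2%, over 10 to 14 covered cytosines each. Their flanks differed widely, from 0.372% on the lower side of LURE1.1 to 83.5% on the higher side of LURE1.3. The others were the LBD genes LBD5 (86.1%) and LBD8 (87.4%), PP2-B4 (76.2%), SCRL9 (87.0%) and LCR27 (75.8%).

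The 535 genes with levels from 50 to 75% were longer than the set. Their median length was 3921 bp, against 2131 bp for all tested genes. A symbol was given to 39.8% of them and more than 1 transcript to 47.7%, beside 38.8% and 40.3% of all tested genes. Both flanks were at 75% or more in 6 of 534, beside 1.77% of all tested genes, and below 10% in 31.8%, beside 53.6%. The cytosines of these 535 genes were split, with a median of 57.5% at 75% or more, 36.4% below 25% and 4.90% between. The highest named genes among them were EPR1 (73.2%), PUM25 (72.1%) and FUT9 (71.6%).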
